A study of Mus musculus with 4 samples.

Results

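The stretch of mouse chromosome 7 from 21 to 41 Mb (mm9) holds the Wbp7 gene near 31.36 Mb and about 10 Mb of flanking sequence on each side. Its H3K4me3 regions were chosen by position alone: peaks of the 4 deposited lists were joined wherever they overlapped by at least 1 bp, and the joined regions lying wholly within the stretch were kept. This gave 239 of 18786 regions of the whole series, beside 1015 on the rest of chromosome 7. Peaks were mapped by chromatin immunoprecipitation and sequencing in primary macrophages grown from mouse bone marrow for 7 days. The 4 groups were Wbp7-/- untreated, Wbp7+/- untreated, Wbp7-/- with lipopolysaccharide (LPS, 10 ug/ml, 4 h) and Wbp7+/- with the same LPS treatment, each with 1 library. The control cells were therefore heterozygous and not wild type, and all 4 groups came from mice of a mixed background, 94% C57BL/6 and 6% 129/Ola. The place of the 129/Ola DNA, the making of the Wbp7 allele and the number of animals per library were not given in the sources used here, so strain and genotype effects cannot be told apart in this stretch. For the Wbp7+/- LPS library the deposited file's first line says 24 h while its label says 4 h, so its LPS time is uncertain. The macrophage identity was not checked on marker genes and the loss of Wbp7 was not checked on its transcript, since peaks carry neither gene names nor expression.

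Wbp7, also named Kmt2b or Mll2, encodes a methyltransferase of the trithorax family that acts on lysine 4 of histone H3. The trimethylated form, H3K4me3, marks the promoters of active genes and of many CpG-rich promoters that are silent or poised. Peaks of this mark are usually narrow and sit over transcription starts, and broad ones often cover highly expressed or lineage-specific genes. The other enzymes that write the mark, among them Setd1a, Setd1b and Kmt2a, remain encoded in cells that lack Wbp7. In the order of protein-coding genes on the GRCm38 assembly of RefSeq, Kmt2b is followed by Zbtb32, a zinc finger repressor, Upk1a, a uroplakin of the bladder lining, Cox6b1, a subunit of cytochrome c oxidase, and Etv2, an ETS factor of early endothelial and blood development. On its other side lie Igflr1, U2af1l4, a relative of a splicing factor, Psenen, a subunit of the gamma-secretase complex, and Lin37, a subunit of the DREAM complex. No peak was assigned to a gene, because the gene table is of another assembly than the peak lists.

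With 1 library per group, differences between groups have no replicate check and no p-value was computed. Peaks are described by their width in bp and by the authors' score, a value for each peak that peak callers raise with enrichment and with read depth. Scores reach a ceiling at 3100, and peaks at or above it are called ceiling peaks here. Read depths were not given in the sources used here, so scores are compared within a list and a missing peak means only that the caller's threshold was not passed. Intervals are 95% Wilson intervals, which cover counting error over regions and not the variation between cultures.

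All 8 regions within 100 kb of the Wbp7 position had a peak in every library, as had 65.4% of regions in the whole series. Just above the position, 1 of the 8 was broken into separate peaks in both Wbp7-/- libraries. It extends from 31371229 to 31375408 and begins 11.2 kb above 31.36 Mb. The files do not show which part of the gene, if any, it covers. In untreated Wbp7-/- cells it held peaks of 978 and 2624 bp, against a single peak of 3820 bp in untreated Wbp7+/- cells. In LPS-treated Wbp7-/- cells it held peaks of 812 and 2618 bp, against a single peak of 3892 bp in LPS-treated Wbp7+/- cells. Both Wbp7-/- libraries therefore lacked signal above threshold over one shared inner stretch that both Wbp7+/- peaks ran across.

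That inner stretch ran from 31372207 to 31372782 in untreated Wbp7-/- cells, a length of 576 bp. It ran from 31372196 to 31372790 in LPS-treated Wbp7-/- cells, a length of 595 bp. The lower piece scored 914.16 untreated and 920.34 after LPS in Wbp7-/- cells, and the upper piece was at the ceiling in both. The undivided Wbp7+/- peaks were at the ceiling as well. A peak list does not show how many reads fell in the stretch.

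An interruption of this kind was searched for after this region had been seen, as a stretch covered in both libraries of one genotype, uncovered in both of the other and flanked there by peaks. Of the 163 regions of the stretch with a peak in every list, 1 was interrupted in Wbp7-/- cells, the one just described, against 0.919% of such regions in the whole series. The 113 interruptions of Wbp7-/- peaks in the series had a median length of 49 bp, and the untreated length of 576 bp was the 6th longest. Among the 80 of them in regions at the ceiling in every list, 5 were of 500 bp or more. Interruptions of Wbp7+/- peaks that Wbp7-/- peaks ran across numbered 4 in the stretch, against 1.49% in the series. The longest of these 4 measured 65 bp.

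**Figure D1:**
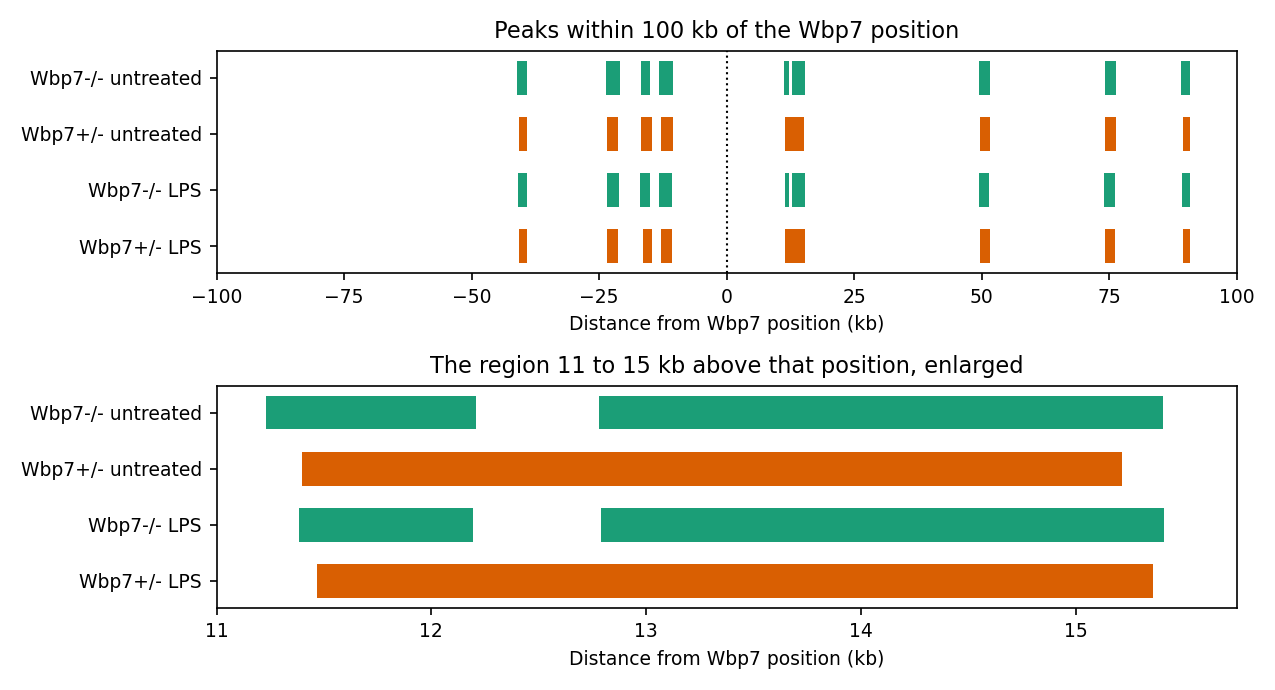
Peaks of each library within 100 kb of the Wbp7 position (upper panel) and of the region just above it (lower panel), by distance in kb from 31.36 Mb; each bar is 1 peak, green in Wbp7-/- and orange in Wbp7+/-. The Wbp7-/- bars of that region are split by 576 bp untreated and 595 bp after LPS, and the Wbp7+/- bars are whole.

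The other 7 regions within 100 kb of the Wbp7 position had 1 peak in every list. From 31346760 to 31349511, 10.5 kb below the position, widths were 2752 bp (Wbp7-/-) and 2368 bp (Wbp7+/-) untreated, and 2582 bp (Wbp7-/-) and 2301 bp (Wbp7+/-) with LPS. From 31336386 to 31339090 they were 2705 bp (Wbp7-/-) and 2138 bp (Wbp7+/-) untreated, and 2287 bp (Wbp7-/-) and 2178 bp (Wbp7+/-) with LPS. Both regions were at the ceiling in every list and wider in Wbp7-/- cells in both treatments.

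The region from 31343039 to 31345307 measured 1842 bp (Wbp7-/-) and 2007 bp (Wbp7+/-) untreated, and 1966 bp (Wbp7-/-) and 1730 bp (Wbp7+/-) with LPS. Its direction thus differed between the treatments. From 31318882 to 31320886 the widths were 2005 bp (Wbp7-/-) and 1622 bp (Wbp7+/-) untreated, and 1799 bp (Wbp7-/-) and 1632 bp (Wbp7+/-) with LPS, and the LPS-treated Wbp7-/- peak was the only one below the ceiling, at 2759.37. Above the gene, the regions from 31409454 to 31411696, 31434060 to 31436312 and 31449103 to 31450872 had width ratios of 1.05, 1.08 and 1.22 (Wbp7-/- over Wbp7+/-) in untreated cells and of 0.979, 1.01 and 1.09 after LPS. Apart from the broken region, the immediate surroundings of Wbp7 were thus marked alike in presence in all 4 libraries. All these regions reached the ceiling in a Wbp7+/- list, and shared presence is usual for such regions. Of those in both Wbp7+/- lists over the whole series, 0.839% had no Wbp7-/- peak.

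The 239 regions were spread unevenly. None lay in the first 3.87 Mb or the last 1.94 Mb of the stretch, and 3 gaps longer than 1 Mb divided the rest into 4 blocks. The lowest block, from 24866240 to 26633677, held 64 regions. The second, from 27949699 to 31994697, contains Wbp7 and held 139 regions, and above it no list had a peak for 2.92 Mb. The third, from 34917388 to 36588100, held 25 regions and the last, from 38105280 to 39057323, held 11. The median gap between neighbouring regions was 19.5 kb, against 23.7 kb over chromosome 7.

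**Figure D2:**
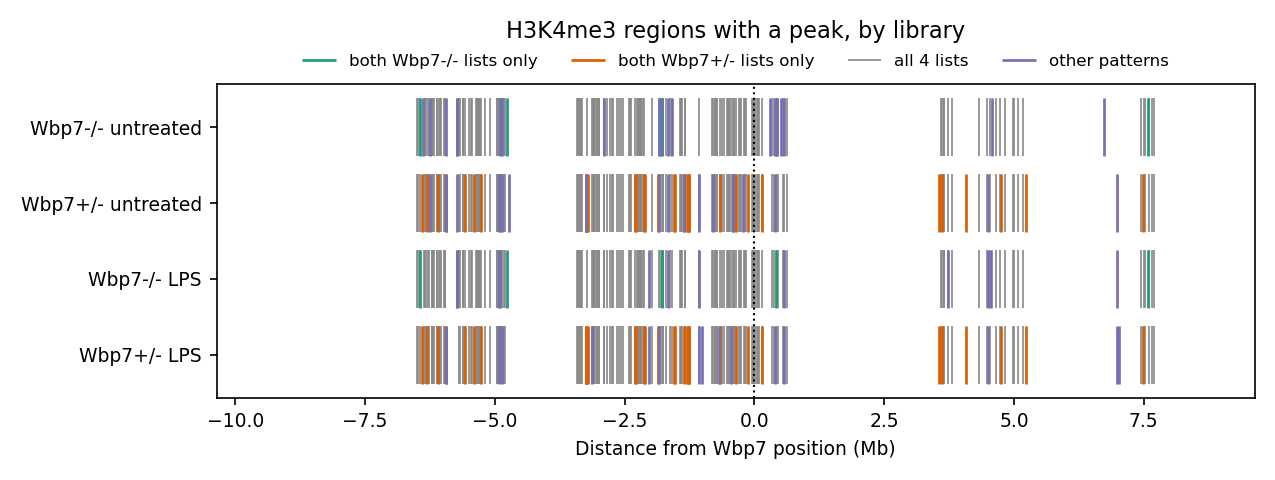
Regions of the stretch with a peak in each library, by distance in Mb from the Wbp7 position (dotted line); each tick is 1 region, coloured by the lists that hold a peak in it. The 4 blocks were set on the joined regions, so peaks of every library lie within them by construction. The orange ticks of the 33 regions seen in the Wbp7+/- pair alone occur in all 4 blocks.

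The untreated lists had 200 peaks (Wbp7-/-) and 236 peaks (Wbp7+/-) here, 1.37% and 1.36% of their peaks. The LPS lists had 191 peaks (Wbp7-/-) and 226 peaks (Wbp7+/-), 1.27% and 1.31% of theirs. Their median width was 2083.5 bp (Wbp7-/-) and 1721.5 bp (Wbp7+/-) untreated, and 2033 bp (Wbp7-/-) and 1770 bp (Wbp7+/-) with LPS. On the rest of chromosome 7 the medians were 2133 bp (Wbp7-/-) and 1877 bp (Wbp7+/-) untreated, and 2098 bp (Wbp7-/-) and 1817 bp (Wbp7+/-) with LPS. Ceiling peaks made up 65% of the untreated Wbp7-/- and 58.9% of the untreated Wbp7+/- peaks, and after LPS 66.5% (Wbp7-/-) and 57.1% (Wbp7+/-). The Wbp7+/- lists thus held more peaks here, and a larger part of them was narrow and weak, as in the lists as a whole.

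All 4 lists had a peak at 163 regions, 68.2% of the 239 (62 to 73.8), against 71.1% of regions on the rest of chromosome 7 and 65.4% in the whole series. Of the remaining regions, 6 had peaks in the Wbp7-/- pair alone, 33 in the Wbp7+/- pair alone, and 1 each in the LPS pair and in the untreated pair of lists, where the series had 1.75 and 0.82%. A peak was missing in a single list at 12 regions and present in a single list at 23. The 2 crossed patterns, which pair lists that share neither genotype nor treatment, were seen at 0 regions, which allows a share of up to 1.26% each. Their shares in the series were 0.106 and 0.256%.

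Regions marked in the Wbp7+/- pair and unmarked in the Wbp7-/- pair were the most frequent class after the shared ones. They made up 33 of the 239 regions, against 10.9% of regions in the whole series. Among the 204 regions that both Wbp7+/- lists held they were 16.2% (11.8 to 21.8), against 10% (8.16 to 12.2) of 839 on the rest of chromosome 7 and 13.8% (13.2 to 14.4) of 13996 on the other chromosomes. In the whole series the share was 13.6%. With every list limited to the 14599 highest-scoring peaks, the length of the shortest list, the class held 19 regions, and its share was 10.7% (6.94 to 16.1) in the stretch against 5.75% (4.31 to 7.63) on the rest of chromosome 7 and 9.27% (8.77 to 9.8) on the other chromosomes. The interval of the full lists overlaps those of both comparison sets, and the difference was not tested. Among 8 windows of 20 Mb along chromosome 7 the stretch had the highest share, and the other windows ranged from 8.77 to 11.1%. The chromosome itself is low: with the stretch included it was at 11.2%, tied for the lowest of 20 chromosomes. The highest was at 17.5%, and 2 chromosomes were above the stretch. Among the 115 such windows of the genome with at least 50 regions in both Wbp7+/- lists, 31 had a higher share and 83 a lower one, so the value was the highest on its chromosome and lay within the range of the genome, 7.14 to 30.5%.

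**Figure D3:**
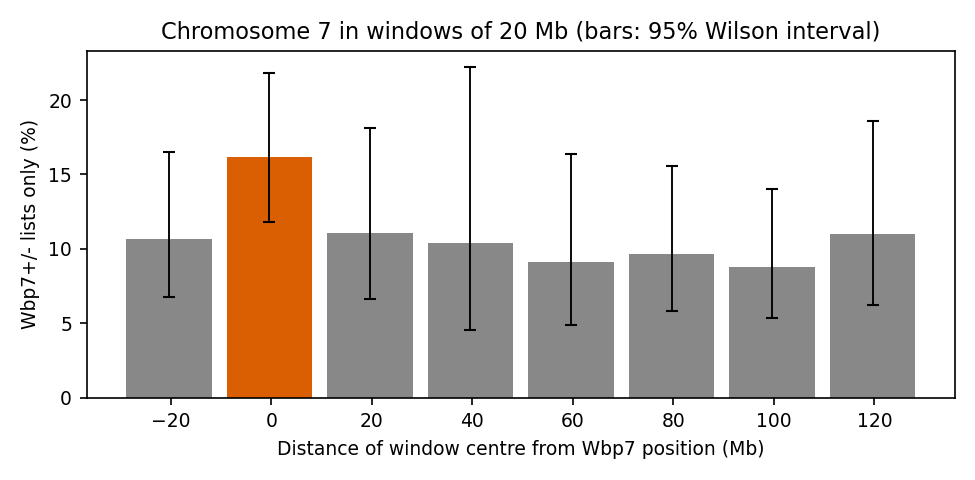
Share of regions in both Wbp7+/- lists that had a peak in neither Wbp7-/- list, for consecutive 20-Mb windows of chromosome 7 placed by the distance of their centre from the Wbp7 position; bars show the share and lines the 95% Wilson interval. The window around Wbp7 (orange) is at 16.2% and the others (grey) lie between 8.77 and 11.1%, with overlapping intervals.

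Direct overlap of peaks between the full lists left more Wbp7+/- than Wbp7-/- peaks unmatched in each treatment. Untreated Wbp7-/- peaks without a Wbp7+/- counterpart numbered 17 of 200 (8.5%, 5.37 to 13.2), and untreated Wbp7+/- peaks without a Wbp7-/- counterpart 46 of 236 (19.5%, 14.9 to 25). In the whole lists these shares were 6.93 and 19.7%. After LPS the numbers were 13 of 191 Wbp7-/- peaks (6.81%, 4.02 to 11.3) and 43 of 226 Wbp7+/- peaks (19%, 14.4 to 24.6), against 8.0 and 19.7% in the whole lists. The stretch thus lay near the series in both directions. With lists of equal length the untreated shares were close, with 25 of 200 Wbp7-/- peaks (12.5%, 8.61 to 17.8) and 23 of 198 Wbp7+/- peaks (11.6%, 7.87 to 16.8) unmatched. In the whole equal lists these shares were 12.0 and 11.6%, and on the rest of chromosome 7 11.3 and 8.05%. Equal lengths bring both directions close over the series by construction, so this setting does not test the asymmetry. After LPS the equal lists left 20 of 186 Wbp7-/- peaks (10.8%, 7.07 to 16) and 30 of 194 Wbp7+/- peaks (15.5%, 11.1 to 21.2) unmatched, with overlapping intervals. The whole equal lists had 11.4 and 12.6%, and the rest of chromosome 7 had 9.61 and 9.06%. With the full lists, 13.9% of untreated and 15.9% of LPS-treated Wbp7+/- peaks on the rest of chromosome 7 had no Wbp7-/- counterpart.

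The share depended on the Wbp7+/- score. Among the regions in both Wbp7+/- lists whose higher Wbp7+/- score was between 500 and 3100, 9 of 24 had no Wbp7-/- peak (37.5%, 21.2 to 57.3), against 18 of 141 on the rest of chromosome 7 (12.8%, 8.23 to 19.3) and 22.6% in the series. Between 100 and 500 the share was 52.5% (21 of 40), against 46.1% on the rest of chromosome 7 and 46.4% in the series. Under 100 it was 2 of 4 (50%, 15 to 85), against 18 of 25 on the rest of chromosome 7 (72%, 52.4 to 85.7) and 65.6% in the series. At the ceiling it was 1 of 136, against 1 of 571 on the rest of chromosome 7 and 0.839% in the series. These classes rest on Wbp7+/- scores, which depend on the unknown depth of those libraries.

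The 33 regions were narrow, as this class was elsewhere, with a median Wbp7+/- width of 745 bp untreated and 806 bp with LPS. The medians of the class were 782.5 and 807 bp on the rest of chromosome 7 and 826 and 873 bp in the series. Their peaks ranged from 414 to 2163 bp untreated and from 329 to 2190 bp after LPS. The strongest lay from 30690575 to 30692174, with peaks of 1586 bp at the ceiling untreated and 1386 bp scoring 2777.1 after LPS. It was the only region of the stretch that reached the ceiling in a list and lacked a peak in another. A neighbour that begins 0.785 kb above it, from 30692960 to 30694516, had a peak in every list, with widths of 1393 bp (Wbp7-/-) and 1512 bp (Wbp7+/-) untreated, and 1338 bp (Wbp7-/-) and 1410 bp (Wbp7+/-) with LPS. Adjacent regions thus differed in presence.

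The next by score lay from 30092175 to 30093613, with Wbp7+/- peaks of 1439 bp (score 2482.38) untreated and 1224 bp (2126.3) after LPS. From 25266242 to 25267586 the Wbp7+/- peaks scored 1550.89 untreated and 1583.73 after LPS, and from 36118249 to 36120077 they scored 1519.22 and 1487.9. The last, from 25054821 to 25055759, scored 1454.49 and 1375.15. These 5 were taken as the highest-scoring of the class, so their high scores and their absence from both Wbp7-/- lists follow from that choice.

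Some of these regions lay in small groups, which were picked out after their values were seen. On the part from 28110993 to 28117954, 3 neighbours belonged to this class, the widest of them from 28114405 to 28116601 with 2163 bp untreated and 2190 bp after LPS. Another 4 lay between 30065987 and 30094863. The median distance from a region of this class to the nearest one with a peak in every list was 22.5 kb, close to the 22.6 kb on the rest of chromosome 7. Within 1 Mb of the Wbp7 position, 4 of 45 regions in both Wbp7+/- lists belonged to the class (8.89%, 3.51 to 20.7). Below the Wbp7 position the share was 26 of 160 (16.2%) and above it 7 of 44 (15.9%).

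The reverse class, marked in the Wbp7-/- pair and unmarked in the Wbp7+/- pair, held 6 regions, 2.51% of the 239 against 2.07% in the whole series. Of the 173 regions in both Wbp7-/- lists they were 3.47% (1.6 to 7.36), against 2.89% on the rest of chromosome 7 and 2.96% on the other chromosomes. All 6 were weak, with untreated scores between 100.15 and 284.93 and LPS scores between 54.2 and 149.54. The highest-scoring, from 31785256 to 31786774, lay 425.3 kb above the Wbp7 position and measured 1441 bp untreated and 1399 bp with LPS. With lists of equal length the class held 10 of 172 regions (5.81%), against 4.78% on the rest of chromosome 7 and 5.82% on the other chromosomes. Within 5 Mb of the Wbp7 position it held 3 of 123 (2.44%), against 3.09% on the rest of chromosome 7. None of the 6 reached a score of 500, and 10 of the 33 regions of the Wbp7+/- class did. In the series the shares were 13.9% of the Wbp7-/- class and 30.4% of the Wbp7+/- class, so both counts are near the background.

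**Figure D4:**
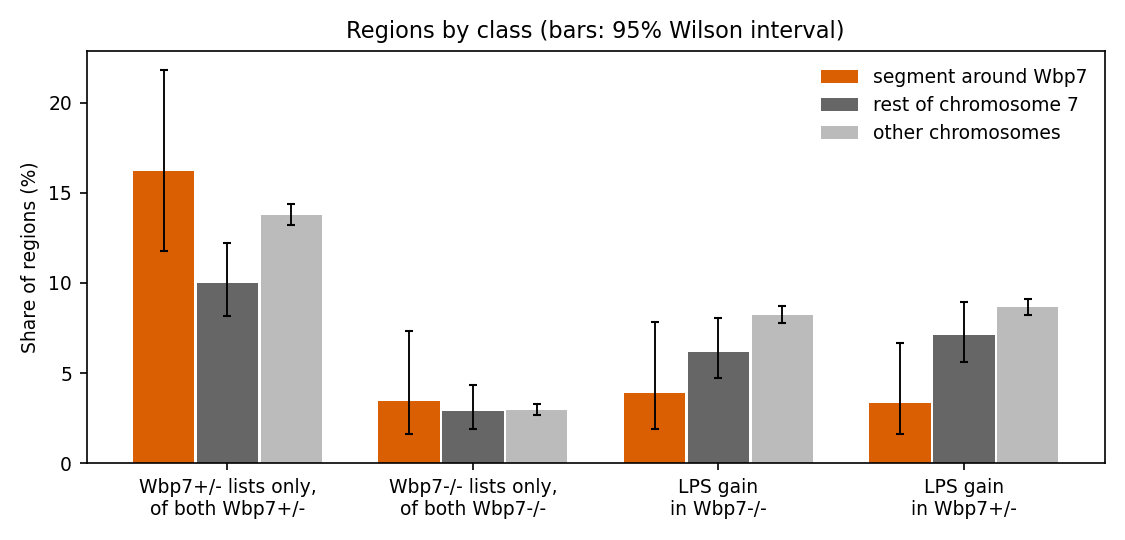
Shares of regions in the stretch around Wbp7 (orange), on the rest of chromosome 7 (dark grey) and on other chromosomes (light grey), with 95% Wilson intervals; each pair of lists or LPS list gives the denominator. The stretch had the highest share of Wbp7+/- regions without Wbp7-/- peaks (16.2%) and the lowest shares of LPS gains (3.89% in Wbp7-/-, 3.32% in Wbp7+/-).

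Most of the shared regions were strong in every library. Of the 163 regions with a peak in all 4 lists, 121 were at the ceiling in every list, 74.2% against 68.1% on the rest of chromosome 7 and 68.5% in the series. Another 25 were below it in every list. At 5 regions the score was below the ceiling in both Wbp7-/- lists and at it in both Wbp7+/- lists, 3.07% of the 163 against 3.92% in the series. The reverse was seen at 3 of the 163, against 5 of 722 on the rest of chromosome 7 and 0.618% in the series. This share was higher in the stretch, and the difference was not tested. Read depths are unknown, so scores of different libraries are not compared as amounts, and widths are given beside them.

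The clearest of the 5 lay from 29953403 to 29957012, where the Wbp7-/- peaks were divided and scored low within their own lists. Their highest scores had 22.5% (untreated) and 16.9% (LPS) of the list's peaks below them. In untreated cells 2 Wbp7-/- peaks covered 2642 bp with a highest score of 349.82, against a single Wbp7+/- peak of 3548 bp at the ceiling. In LPS-treated cells 2 Wbp7-/- peaks covered 1504 bp with a highest score of 160.99, against 3338 bp at the ceiling in Wbp7+/- cells. The others lay at 28713407 to 28714812, 30568750 to 30570158, 25021862 to 25023092 and 30692960 to 30694516. Of these, the first measured 991 bp (Wbp7-/-) and 1389 bp (Wbp7+/-) untreated, and 884 bp (Wbp7-/-) and 1272 bp (Wbp7+/-) with LPS. All 5 were narrower in Wbp7-/- cells in both treatments.

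The widest difference in the other direction lay from 25174574 to 25180814. Untreated Wbp7-/- cells had 1 peak of 6172 bp at the ceiling there, and untreated Wbp7+/- cells 2 peaks covering 4304 bp with a highest score of 2754.57. After LPS the Wbp7-/- peaks covered 5490 bp at the ceiling, against a single Wbp7+/- peak of 1314 bp scoring 515.88. The other 2 regions of this kind, from 28473196 to 28475322 and from 29225355 to 29228967, differed less. The last of these held 3192 bp (Wbp7-/-) and 2932 bp (Wbp7+/-) untreated, and 3612 bp (Wbp7-/-) and 3474 bp (Wbp7+/-) with LPS. These 8 regions were picked out after their scores were seen.

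The 5 broadest regions, ranked by covered length in untreated Wbp7-/- cells, had nearly the same covered length in both genotypes. The region from 25174574 described above, also broad, differed more and is not among them. The widest in untreated Wbp7-/- cells, from 31197672 to 31209808, lay 150.2 kb below the Wbp7 position and was covered over 12097 bp (Wbp7-/-) and 12046 bp (Wbp7+/-) untreated, and 11919 bp (Wbp7-/-) and 11992 bp (Wbp7+/-) with LPS. From 29159091 to 29169249 the covered lengths were 9416 bp (Wbp7-/-) and 9199 bp (Wbp7+/-) untreated, and 9892 bp (Wbp7-/-) and 9610 bp (Wbp7+/-) with LPS. In the region from 26062310 to 26070034 they were 7634 bp (Wbp7-/-) and 7421 bp (Wbp7+/-) untreated, and 7527 bp (Wbp7-/-) and 7353 bp (Wbp7+/-) with LPS. The remaining ones, from 26565941 to 26574753 and from 31821151 to 31828354, had untreated ratios of 1.04 and 1.01. All 5 were at the ceiling in every list, and the untreated ratio of Wbp7-/- to Wbp7+/- covered length was between 1.0 and 1.04.

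Peaks in shared regions were slightly wider in Wbp7-/- cells, with a median close to that elsewhere. Width was compared over the 130 regions with exactly 1 peak in every list (56.0% of regions in the whole series were of this kind), as the log2 ratio of Wbp7-/- to Wbp7+/- width. Untreated, the median ratio was 0.058 (95% interval of the median 0.029 to 0.078), against 0.063 over 606 regions on the rest of chromosome 7 and 0.05 on the other chromosomes. After LPS it was 0.059 (0.005 to 0.094), against 0.068 and 0.055. The small median varied between parts of the stretch, of which some are given here. In the third block it was -0.036 untreated and 0.044 after LPS over 16 regions, and in the last block 0.071 and -0.05 over 4. From 31 to 33 Mb, a bin that holds Wbp7, it was higher, 0.205 untreated and 0.14 after LPS over 18 regions. From 29 to 31 Mb it was 0.031 and 0.044 over 37. Within 1 Mb of the Wbp7 position on both sides it was 0.076 and 0.062 over 35. These differences were not tested. Wbp7-/- peaks were wider at 90 of the 130 regions untreated, or 69.2% against 63.0% in the series, and at 77 after LPS, or 59.2% against 62.9%. In both treatments, 66 regions were wider and 29 narrower in Wbp7-/- cells, to compare with 48.4 and 22.4% of such regions in the series.

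The ratios of the 2 treatments come from separate libraries, and over the 130 regions they had a Pearson correlation of 0.477 and a Spearman correlation of 0.529. On the rest of chromosome 7 these were 0.615 and 0.549. Regions of 1 chromosome and 1 set of libraries are not independent, so these values are descriptions. A few regions departed far from the median in both treatments and were picked out after their values were seen. From 31910010 to 31912773, the peak measured 1034 bp (Wbp7-/-) and 2764 bp (Wbp7+/-) untreated, and 736 bp (Wbp7-/-) and 1968 bp (Wbp7+/-) with LPS, a log2 ratio of -1.42 in each treatment. From 36019101 to 36021203 the widths were 1139 bp (Wbp7-/-) and 2103 bp (Wbp7+/-) untreated, and 1032 bp (Wbp7-/-) and 1839 bp (Wbp7+/-) with LPS, again narrower in Wbp7-/- cells.

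In the other direction, the region from 31177661 to 31179947 measured 2287 bp (Wbp7-/-) and 1477 bp (Wbp7+/-) untreated, and 1761 bp (Wbp7-/-) and 968 bp (Wbp7+/-) with LPS. That from 31787305 to 31788811 measured 1312 bp (Wbp7-/-) and 874 bp (Wbp7+/-) untreated, and 1320 bp (Wbp7-/-) and 858 bp (Wbp7+/-) with LPS. They lay 180.1 kb below and 427.3 kb above the Wbp7 position, and both were below the ceiling in every list. A threshold of 0.5 on the log2 scale was passed in both treatments by 2 regions that were wider and 3 that were narrower in Wbp7-/- cells, of 130, near the 1.8% and 2.78% of such regions in the series. The region from 29170187 to 29171872 had opposite ratios in the treatments, 1.72 untreated and -1.04 after LPS, with scores of 78.19 to 381.66.

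**Figure D5:**
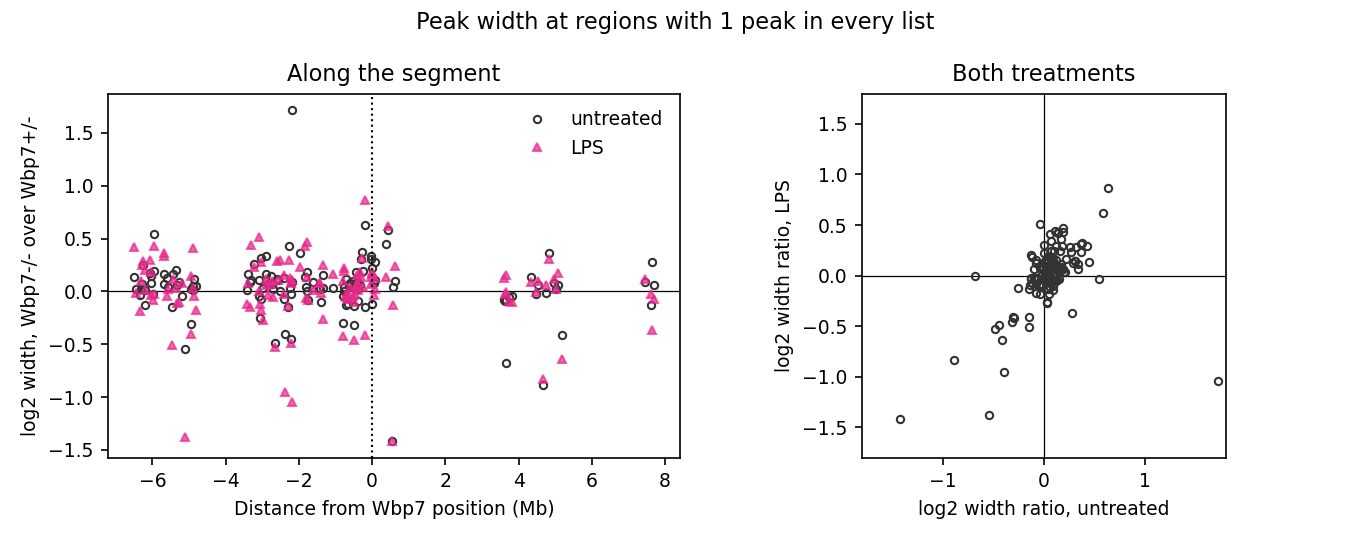
Log2 ratio of Wbp7-/- over Wbp7+/- peak width at the 130 regions with 1 peak in every list, against distance in Mb from the Wbp7 position (left; circles untreated, triangles LPS) and untreated against LPS (right); each point is 1 region. Over the whole stretch the medians are 0.058 untreated and 0.059 after LPS. The untreated median is -0.036 over the 16 points of the third block and 0.205 over the 18 from 31 to 33 Mb. These parts were picked out, and their differences were not tested.

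Among the 99 regions with 1 ceiling peak in every list, the median log2 ratio was 0.069 untreated and 0.066 after LPS. The highest ratios averaged over the treatments were at 29095332 to 29097999, with 2515 bp (Wbp7-/-) and 1872 bp (Wbp7+/-) untreated, and 2445 bp (Wbp7-/-) and 1996 bp (Wbp7+/-) with LPS, and at 31092702 to 31095047, with 2346 bp (Wbp7-/-) and 1809 bp (Wbp7+/-) untreated, and 2188 bp (Wbp7-/-) and 1754 bp (Wbp7+/-) with LPS. The next 3 lay at 36180423 to 36183381, 29580283 to 29583133 and 28336759 to 28340266, with untreated ratios of 1.29, 1.14 and 1.25. The lowest was at 29155653 to 29158586, with 2149 bp (Wbp7-/-) and 2934 bp (Wbp7+/-) untreated, and 2033 bp (Wbp7-/-) and 2859 bp (Wbp7+/-) with LPS. It adjoins the broad region from 29159091 described above, which was not narrower in Wbp7-/- cells.

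Regions with lower ratios followed at 30874265 to 30876373, with 1562 bp (Wbp7-/-) and 1942 bp (Wbp7+/-) untreated, and 1471 bp (Wbp7-/-) and 2020 bp (Wbp7+/-) with LPS, and at 26411444 to 26415766, with 3485 bp (Wbp7-/-) and 4306 bp (Wbp7+/-) untreated, and 3118 bp (Wbp7-/-) and 4133 bp (Wbp7+/-) with LPS. At 35011857 to 35015685 the peaks measured 2295 bp (Wbp7-/-) and 3676 bp (Wbp7+/-) untreated, and 2286 bp (Wbp7-/-) and 2294 bp (Wbp7+/-) with LPS, so the genotypes differed mainly untreated. The last, at 29062513 to 29063838, had an untreated ratio of 0.902. Wider and narrower regions of these lists lay near each other in places. The wider one at 29095332 lay between the narrower ones at 29062513 and 29155653, with other regions between them.

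Few regions of the stretch appeared with LPS. In Wbp7-/- cells 7 of 180 regions with an LPS peak had no untreated peak (3.89%, 1.9 to 7.81), against 6.17% on the rest of chromosome 7 and 8.08% in the series. In Wbp7+/- cells 7 of 211 did (3.32%, 1.62 to 6.69), against 7.09% (5.59 to 8.95) on the rest of chromosome 7 and 8.51% in the series. Of the 119 windows of 20 Mb with at least 50 Wbp7+/- LPS regions, 116 had a higher share of gains and 2 a lower one. With peaks scoring under 100 dropped, 41 of 114 windows had a higher share and 72 a lower one. The order against the rest of chromosome 7 also turned when peaks scoring under 100 were dropped from every list, with gains at 6.57% of regions in the stretch and 4.63% on the rest of chromosome 7 in Wbp7+/- cells. It turned again with lists of equal length, with 4.81% in the stretch and 4.26% on the rest of chromosome 7 in Wbp7+/- cells. In Wbp7-/- cells, dropping peaks under 100 gave 1.19% in the stretch and 4.84% on the rest of chromosome 7. With the uncertain LPS time of the Wbp7+/- library, these counts do not compare the genotypes.

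Both genotypes gained a peak at 1 region. It lay from 29324297 to 29325189, with LPS peaks of 358 bp (score 71.59) in Wbp7-/- and 893 bp (132.23) in Wbp7+/- cells. The strongest gain lay from 38382585 to 38384530, in LPS-treated Wbp7+/- cells alone, with 1946 bp and a score of 511.39. No LPS gain in the stretch reached the ceiling. Over the whole series, 20 of 1297 Wbp7-/- LPS peaks without an untreated peak did so. In Wbp7+/- cells it was 20 of 1550, so none here is near the background. The only region lost with LPS in both genotypes, from 25118110 to 25118992, scored 57.34 (Wbp7-/-) and 99.31 (Wbp7+/-) untreated. Losses with LPS numbered 14 of 187 regions in Wbp7-/- (7.49%, 4.51 to 12.2) and 11 of 215 in Wbp7+/- cells (5.12%, 2.88 to 8.93), against 6.36 and 7.21% in the series.

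Shared peaks were slightly narrower after LPS in both genotypes, over the same 130 regions. The median log2 ratio of LPS to untreated width was -0.068 in Wbp7-/- and -0.047 in Wbp7+/- cells, against -0.044 and -0.045 on the rest of chromosome 7. LPS peaks were the wider ones at 38 regions in Wbp7-/- cells, or 29.2% against 39.4% in the series, and at 43 in Wbp7+/- cells, or 33.1% against 38.6%.

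Patterns in which 1 list differed from the other 3 were few. Peaks were missing in untreated Wbp7-/- cells alone at 4 regions and in LPS-treated Wbp7-/- cells alone at 4, shares of 1.67% each against 2.41 and 1.3% in the series. The strongest, from 31757246 to 31759598, had no peak in LPS-treated Wbp7-/- cells, 1961 bp scoring 112.53 in untreated Wbp7-/- cells and 2353 bp scoring 1620.16 in untreated Wbp7+/- cells. Its LPS-treated Wbp7+/- peak scored 1004.72. A peak was missing in LPS-treated Wbp7+/- cells alone at 3 regions, 1.26% against 1.79% in the series, with top scores of 480.55, 520.94 and 701.02. It was missing in untreated Wbp7+/- cells alone at 1, from 31940290 to 31942098, against 0.389% in the series.

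Peaks found in a single list numbered 9 in untreated Wbp7-/- cells, 7 in untreated Wbp7+/- cells, 2 in LPS-treated Wbp7-/- cells and 5 in LPS-treated Wbp7+/- cells. Their shares of 3.77, 2.93, 0.837 and 2.09% compare with 2.5, 3.35, 1.71 and 5.2% in the series. Scores under 100 were found for 5 of the 9, 7 of the 7, 2 of the 2 and 3 of the 5. The highest in untreated Wbp7-/- cells, from 38105280 to 38106413, scored 193.43, and the only one above 500 was the LPS gain at 38382585 given above.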

How the data were processed

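H3K4me3 ChIP-seq was done in 4 libraries, 1 per group. Reads were aligned with Bowtie to mm9, per the submitters' processing notes, and peaks were called with MACS in each library separately, per the file headers. Versions, thresholds and read numbers were not given in the sources used here. The deposited values used are each peak's start, end and score, as the authors' files give them; the scale of the score was not stated.

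Joining used bedtools 2.31.1 with an overlap of at least 1 bp, and 0 regions crossed an edge of the stretch. Starts are counted from 1. Width ratios used regions with 1 peak in every list. Intervals came from scipy 1.17.1, tables from pandas 2.3.3 on Python 3.11.15 and plots from matplotlib 3.10.9. The joining and the ratios were tested on altered copies of the untreated Wbp7+/- list, with peaks removed, widened and shifted. Groups came from sample titles, and no test between groups was made, with 1 library per group. Regions named are all within 100 kb of Wbp7, ceiling regions missing from a list, up to 5 highest-scoring per pattern (the text prints the leading ones), the 5 widest, and the 5 highest and lowest ceiling width ratios. Any others are said to be picked out. Interruptions, 20-Mb windows and ceiling differences were examined after the values were seen. The stretch, rules and lists were chosen with earlier results of these data known. Alternatives were joining within 1 kb, dropping peaks under 100, lists of equal length and 5 Mb each side.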

Additional observations from a re-analysis of the deposited data

How the results depend on the processing

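Across 9 results and 4 settings, 29 of 36 values differed from the reported count by a factor of at most 1.5, or fell inside the interval of the reported median. Those for LPS gains were added after the data were seen. With every list limited to its 14599 highest-scoring peaks, regions in both Wbp7+/- lists only numbered 19, regions in both Wbp7-/- lists only 10, untreated Wbp7+/- peaks without a Wbp7-/- peak 23, and LPS gains in Wbp7-/- cells 4. This setting trims the longer Wbp7+/- lists more by construction. With peaks under 100 dropped, LPS gains numbered 2 in Wbp7-/- and 13 in Wbp7+/- cells. With 5 Mb each side, regions in both Wbp7-/- lists only numbered 3. That setting keeps 174 of the 239 regions, so its counts are lower by construction. The median width ratios kept their sign in every setting. The share of Wbp7+/- regions without Wbp7-/- peaks ranged from 10.7 to 16.3% in the stretch and from 5.75 to 10.4% on the rest of chromosome 7 over the reported setting and the 4 alternatives, higher in the stretch in each. With lists of equal length it was 10.7% in the stretch and 9.27% on the other chromosomes, and 25 untreated Wbp7-/- peaks had no Wbp7+/- peak. The labels hold no replicate numbers. Genotypes were compared within each treatment as values, no model over the 4 libraries was fitted, and no library was left out, since that would leave its group without one. Depth limits every absent peak, and its size is unknown.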
